A study of Mus musculus with 22 samples.

Results

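The replication-dependent histone genes are the clustered genes that supply most of the histone protein packed onto newly made DNA. They were taken as the genes whose symbol in the mouse annotation release GENCODE M21 starts with Hist1h, Hist2h, Hist3h or Hist4h, with pseudogenes left out. This gave 65 genes of the 49671 in the count table, namely 6 genes for the linker histone H1, 18 for H2A, 16 for H2B, 12 for H3 and 13 for H4. The Hist1 cluster on chromosome 13 (GRCm38) held 52 of them, 22 in a first block from 21715763 to 22043676 and 30 in a second block from 23531050 to 23934851. The Hist2 cluster on chromosome 3 (96219865 to 96270132) held 10, the Hist3 cluster on chromosome 11 (58948920 to 58956830) held 2, and Hist4h4 stood alone on chromosome 6 (136801553 to 136804415). The annotated genes Hist1h2bh and Hist1h2bm had no row in the table and were not analysed here.

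RNA was measured in 22 libraries of TH2 cells, CD4 T cells steered in culture towards the type 2 helper programme, from wild-type Balb/c mice. For 11 libraries the cells had received calcitriol, the active hormone form of vitamin D, at 100 nM for the final 24 hours, and for the other 11, the vehicle group, 2% ethanol as the solvent; RNA came from day 5 of polarization in both. The labels state 6 to 8 weeks as the age of the purchased mice of both sexes, and breeding on diets with 3 different amounts of vitamin D3, without linking any library to a sex, a diet, a mouse or a culture. Replicate numbers below only follow the order of deposit. Nothing shows that the libraries came from separate animals or cultures, so the p-values reflect how libraries vary, and that variation may be technical.

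Replication-dependent histone genes are transcribed in S phase, when NPAT at histone locus bodies drives their promoters. Their mRNAs are not polyadenylated: the 3′ end is cut just after a conserved stem-loop, which is bound by the stem-loop binding protein SLBP, and the mRNAs are degraded when DNA synthesis stops. Vitamin D signalling is known for slowing the cell cycle in several cell types, and the libraries here came from total RNA, a preparation that does not select for poly(A) tails, so that both ordinary and poly(A)-free mRNAs can be counted.

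The stem-loop is shown first because it is the feature that sets these mRNAs apart from others. It was searched anywhere in the annotated transcripts as a stem with arms of 6 bases around a loop of 4 bases. It was found in 42 of the 65 genes, against 7 of 21886 other protein-coding genes (0.032%). Those 7 included H2afx, the gene of the DNA damage histone H2A.X, as well as Hist1h2bh and Hist1h2bm. Some annotated transcripts end close behind the stem-loop, such as Hist1h4f after 33 bases. Others run far past it, such as Hist1h1d by 4884 bases and Hist1h1c by 840. The 6 forms found are printed as DNA, 5′ to 3′, with the arms of the stem in capitals.
Form in 24 genes of H1, H2A, H2B and H3: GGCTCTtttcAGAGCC
Form in 7 genes, all H4: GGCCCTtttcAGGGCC
Form in 6 genes of H1, H2B and H3: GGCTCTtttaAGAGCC
Form in Hist1h4i and Hist2h4: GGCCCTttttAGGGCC
Form in Hist1h4b and Hist1h4j: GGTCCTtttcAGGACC
Form in Hist2h2ac: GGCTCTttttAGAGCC
All 11 H4 genes with a stem-loop carried one of 3 forms that no gene of another class carried. Of the 23 genes without a match, 12 had an annotated transcript that ended within 20 bases of the coding length, so that the sequence behind the coding part is not in the annotation for them.

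The start regions are shown because the genes moved together across libraries, as described below. RefSeq start regions (GRCm38.p6, 250 bases before to 50 after the start) were matched for 60 of the 65 genes, and motifs were searched on both strands. The CCAAT box was present in 51 of 60 (85.0%), against 37.8% of 26965 start regions of other genes. It was present in all 48 matched regions of H1, H2A, H2B and H3 and in 3 of 12 of H4. The H4 regions instead held GGTCCG in 11 of 12, a hexamer found in 8.37% of other regions. The octamer ATTTGCAT, a binding motif of POU factors such as OCT1, was present in 7 of 18 H2A and 5 of 14 H2B regions. It was in none of the other classes and in 1.71% of other regions. H2A and H2B genes that stand head to head have overlapping windows, so the same site can be counted for both. This was so for the octamer of Hist1h2ae and Hist1h2bg, and the CCAAT and TATAAA counts share this limit. The letters TATAAA were present somewhere in the window, on either strand, in 35 of 60 (58.3%), against 14.1%. They stood on the gene's own strand before the start in 24 genes, and 20 to 60 bases before it in 15. In Hist1h4f they stand 250 bases before the start. The direct repeat with 3 spacer bases to which the vitamin D receptor binds with its partner RXR was matched in 0 of 60 and in 9 of 26965 other regions, so these letters are rare in any window of this size. The 250 bases before the start are printed for the most abundant H1, H3 and H4 gene per kilobase and for the H2B gene with the largest positive estimate, with these 4 motifs, read on either strand, in capitals.
Hist1h1c, chr13:23738557-23738806 on the plus strand: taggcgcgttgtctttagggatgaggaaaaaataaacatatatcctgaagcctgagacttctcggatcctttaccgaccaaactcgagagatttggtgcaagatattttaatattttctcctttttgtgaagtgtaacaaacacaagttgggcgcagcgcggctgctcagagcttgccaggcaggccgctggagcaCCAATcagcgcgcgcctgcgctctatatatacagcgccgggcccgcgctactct
Hist2h2bb, chr3:96269450-96269699 on the plus strand: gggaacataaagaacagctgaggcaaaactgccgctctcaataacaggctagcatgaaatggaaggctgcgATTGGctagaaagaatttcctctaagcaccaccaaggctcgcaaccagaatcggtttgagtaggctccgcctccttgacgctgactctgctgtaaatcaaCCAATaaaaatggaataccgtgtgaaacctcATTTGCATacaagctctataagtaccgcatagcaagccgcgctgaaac
Hist1h3e, chr13:23562386-23562635 on the minus strand: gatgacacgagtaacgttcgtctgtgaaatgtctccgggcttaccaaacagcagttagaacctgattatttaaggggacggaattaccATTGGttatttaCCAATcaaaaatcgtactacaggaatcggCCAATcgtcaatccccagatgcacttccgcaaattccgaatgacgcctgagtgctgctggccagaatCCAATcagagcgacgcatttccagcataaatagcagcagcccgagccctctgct
Hist1h4f, chr13:23551669-23551918 on the minus strand: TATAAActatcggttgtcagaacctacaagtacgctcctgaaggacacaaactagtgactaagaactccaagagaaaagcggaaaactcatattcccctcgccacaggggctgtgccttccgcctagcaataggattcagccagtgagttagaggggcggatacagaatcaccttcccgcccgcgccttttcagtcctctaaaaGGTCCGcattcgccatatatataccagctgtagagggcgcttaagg
Among these 4, the H4 hexamer stands before Hist1h4f alone, where the CCAAT box is missing, and the octamer stands before Hist2h2bb alone.

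Libraries held 3214171 to 20258430 counts. The T helper markers were high in every library (Cd4, the co-receptor, at 636 to 825 and Cd3e at 28.3 to 45.8 CPM, the count scaled to 1000000 counts per library after adjustment by the trimmed mean of M values), and the 9 of them summed to 3126 to 3950 CPM. Markers of other cells were low but not all at 0. The summed level was 1.56 to 7.16 CPM for 5 B cell markers (Cd79b up to 3.79), 4.29 to 13.9 CPM for 6 myeloid markers (Cd68 up to 12.2, with Lyz2, Csf1r and Itgam at 4 counts or fewer in all) and 3.85 to 10.4 CPM for 5 dendritic markers (Itgax and Zbtb46 up to 6.14 and 6.18). For 6 NK and CD8 T cell markers it was 17.0 to 25.1 CPM in the vehicle group and 24.8 to 80.7 CPM in the calcitriol group, mostly Gzmb, which activated helper cells also make, with Cd8b1 at 2.52 to 9.53 CPM and Ncr1 at 0. The part of these cells in the histone values was not tested. The histone genes took 0.643% to 1.22% of all counts.

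The libraries fell apart on the histone genes in a way that the treatment did not define. The level summed over all 65 genes was 6727 to 8266 CPM in replicates 1 to 4 of both groups, 8 libraries, and 9475 to 12494 CPM in the other 14 libraries. The 8 libraries held 3214171 to 7435258 counts and the other 14 held 3618784 to 20258430, of which 3 lay below 7435258, and the part of depth was not tested. The labels name no batch. In the order of deposit, however, runs of vehicle and calcitriol libraries alternate in 5 sets that each hold both groups: replicates 1 and 2, 3 and 4, 5 and 6, 7 to 9, and 10 and 11. The mean histone sum of the sets was 7082, 7612, 11130, 11250 and 9646 CPM in the vehicle group and 8143, 7022, 11870, 11520 and 10420 CPM in the calcitriol group, so that both groups shared the level of their set. What the sets are is not stated, and results are given without replicates 1 to 4 and with the sets as a term.

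**Figure D1:**
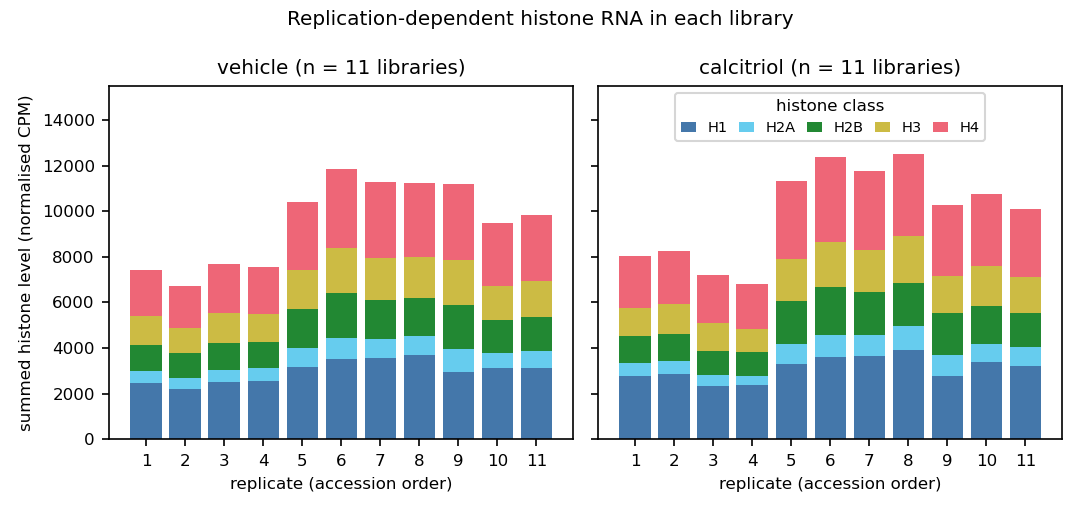
Normalised CPM summed over the 65 genes in each library, stacked by histone class, for 11 vehicle (left) and 11 calcitriol (right) libraries; replicate numbers are names in deposit order. Replicates 1 to 4 of both groups sit between 6727 and 8266, below all others, and the groups overlap.

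Between calcitriol and vehicle cultures the amount of histone RNA differed by less than it did between libraries of 1 group. The summed level was 9517 ± 1864 CPM in the vehicle group (SD, n = 11; lowest 6727, median 9818, highest 11854) and 9952 ± 2057 CPM in the calcitriol group (SD, n = 11; lowest 6819, median 10279, highest 12494). The log2 ratio of the means was 0.06. Scaled by total counts in place of the trimmed mean, it was -0.004, so no direction is given for the family. Within replicates 5 to 11 the means were 10757 ± 874 CPM and 11306 ± 970 CPM (SD, n = 7 each), and within replicates 1 to 4 they were 7347 ± 425 CPM and 7582 ± 676 CPM (SD, n = 4 each).

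In the comparison of all libraries with treatment as the only term, no histone gene passed the test. Of the 65 genes, 53 passed the filter on low counts, and 0 of these 53 were called by edgeR's quasi-likelihood test (Benjamini-Hochberg adjusted p below 0.05 over all 11905 genes tested), where 31.5% of all genes tested were called, 16.1% higher and 15.5% lower. At an unadjusted p below 0.05 there were 2, Hist2h2bb and Hist3h2ba. DESeq2 called 1 of 53 (Hist2h2bb) beside 33.1% of all genes, and limma-voom called 0 beside 32.3%. In none of the 53 were the 11 calcitriol libraries apart from the 11 vehicle libraries, which held for 4.36% of all genes tested.

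The estimates were small, and their intervals bound them. The log2 changes ran from -0.40 (Hist2h3c2) to 0.40 (Hist2h2bb), with a median of 0.07 beside -0.01 over all genes tested. The median absolute change was 0.09, beside 0.15 over all genes tested. Positive estimates numbered 41 and negative ones 12, but 27 and 26 when scaled by total counts. All 53 of the 95% intervals lay within -1 and 1, and 40 lay within -0.5 and 0.5. The median standard error was 0.16, beside 0.09 over all genes tested, so the estimates of the histone genes were the less precise ones.

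**Figure D2:**
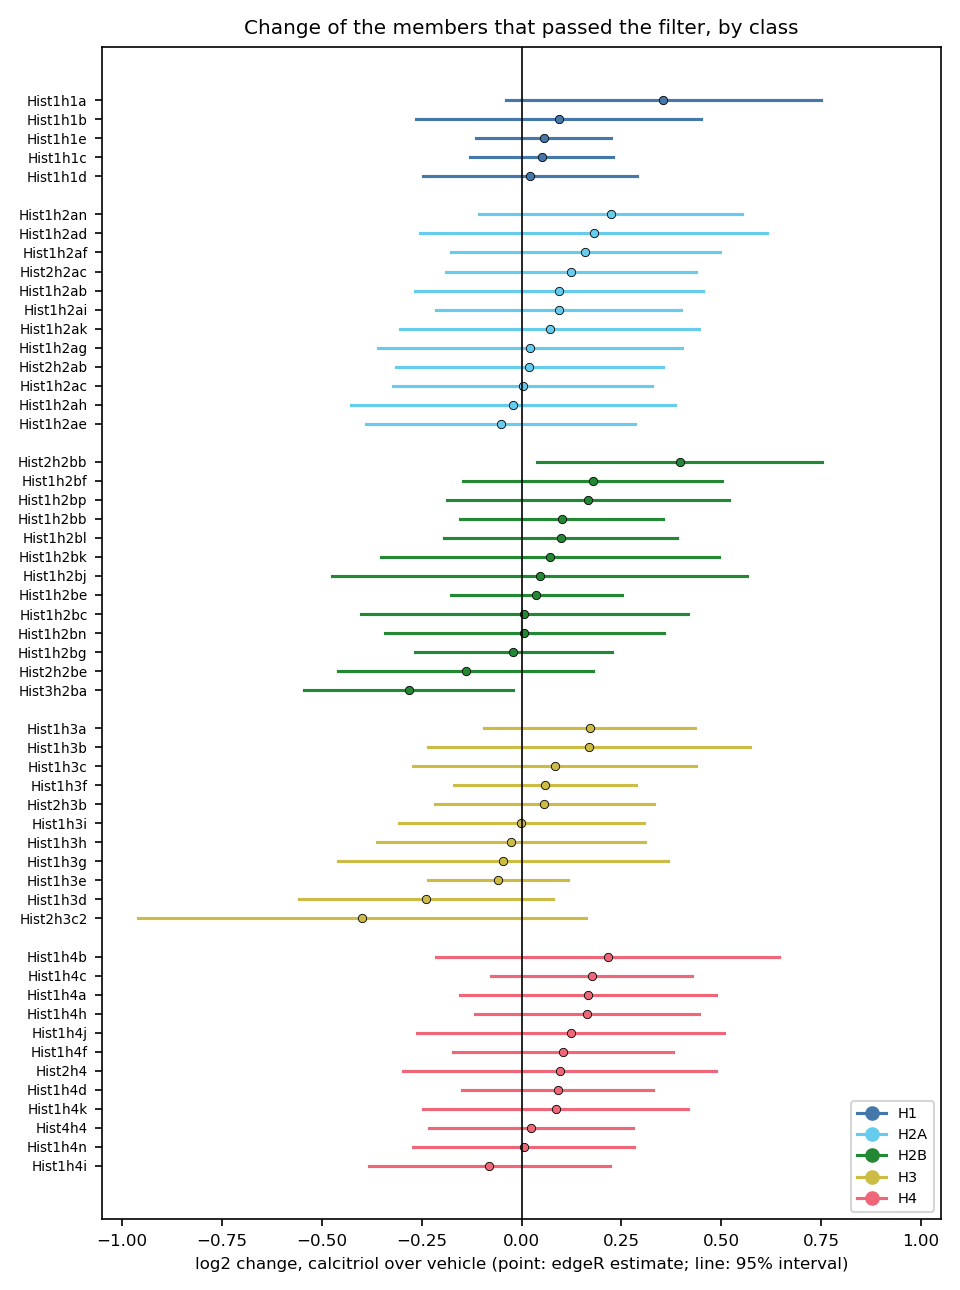
Log2 change of the 53 genes that passed the filter (points, edgeR estimates) with 95% intervals (lines), grouped by class and ordered within it; positive values are higher with calcitriol. The intervals of Hist2h2bb and Hist3h2ba leave out 0, and every interval lies within -1 and 1.

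Leaving out replicates 1 to 4 of both groups, an alternative chosen after seeing the data, narrowed the intervals and brought 7 of 53 past the threshold, beside 30.1% of all genes tested. The 6 higher were Hist1h1a, Hist2h2bb, Hist1h4c, Hist1h2bb, Hist1h2bp and Hist1h2an, and the 1 lower was Hist3h2ba. A fit with 5 surrogate variables, latent factors estimated from the data, called 10 of 53, beside 45.7% of all genes tested: 8 higher (Hist2h2bb, Hist1h4b, Hist1h1a, Hist1h4c, Hist1h4h, Hist1h2bp, Hist1h2an and Hist1h2bf) and 2 lower (Hist3h2ba and Hist1h3d). With the deposit-order sets as a term, also chosen after seeing the data, 12 of 53 were called, beside 40.6% of all genes tested. The 10 higher were Hist2h2bb, Hist1h1a, Hist1h2af, Hist1h2bf, Hist1h3a and the H4 genes Hist1h4a, Hist1h4b, Hist1h4c, Hist1h4d and Hist1h4h, and the 2 lower were Hist3h2ba and Hist1h3d. The median standard error of the 53 log2 changes fell to 0.057 in that fit, and 51 of the 53 intervals lay within -0.5 and 0.5. It was 0.16 with treatment as the only term, where edgeR called none of these 12 genes in the main comparison. Some of the 12 were also called in other fits without the sets, such as Hist2h2bb by DESeq2 and Hist3h2ba with total counts. The shares of histone genes called, 7, 10 and 12 of 53, were below the backgrounds in the 3 fits. With total counts 1 gene was called, Hist3h2ba, beside 35.3% of all genes, and without replicates 1 and 2 of both groups again Hist3h2ba alone, beside 29.2%.

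The H1 genes encode the linker histones that sit on the DNA between nucleosomes. Their summed level was 2986 ± 504 CPM in the vehicle group and 3108 ± 527 CPM in the calcitriol group (SD, n = 11 each), 31.3% of all histone RNA. Hist1h1c (ENSMUSG00000036181), for H1.2, was the most abundant H1 gene per length. It stood at 803 to 1363 CPM (median 1131) in the vehicle libraries and at 934 to 1439 CPM (median 1187) in the calcitriol libraries, which overlapped almost throughout (log2 change 0.05, SE 0.09, adjusted p = 0.712 by edgeR). Hist1h1e, for H1.4, was at 658 to 1019 CPM (median 835) and 668 to 1082 CPM (median 845). Hist1h1b, for H1.5, was at 163 to 328 CPM (median 251) and 152 to 347 CPM (median 301). These 3 genes were chosen by level per kilobase, and none of them separated the groups.

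Hist1h1a (ENSMUSG00000049539), for H1.1, was singled out after its values were seen. It was at 57.7 to 119 CPM (median 91.2) in the vehicle libraries and at 63.5 to 166 CPM (median 122) in the calcitriol libraries. Within replicates 5 to 11 every calcitriol library, 119.3 to 166.3 CPM, was above every vehicle library, 90.2 to 119.2 CPM. Within replicates 1 to 4 the ranges overlapped, 63.5 to 67.8 CPM against 57.7 to 73.3 CPM. By deposit-order set, all calcitriol libraries were above all vehicle libraries in 4 of 5 sets. In the set of replicates 3 and 4 they were below, 67.8 and 64.8 CPM against 72.3 and 73.3 CPM. Over all 22 libraries the log2 change was 0.36 (SE 0.19, adjusted p = 0.169 by edgeR), without replicates 1 to 4 it was 0.46 (adjusted p = 0.000185), and with the deposit-order sets as a term it was 0.31 (SE 0.073, adjusted p = 0.00161). Whether the change differed between replicates 1 to 4 and replicates 5 to 11 was not tested, since that split comes from the data.

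The H2A genes, whose protein forms the outer part of the nucleosome with H2B, summed to 719 ± 177 CPM in the vehicle group and 758 ± 213 CPM in the calcitriol group (SD, n = 11 each). Of 18 genes 12 passed the filter, the lowest share of any class. Hist1h2ak was at 118 to 279.7 CPM (median 222) and 112 to 308 CPM (median 237). Hist2h2ac was at 76.1 to 169.5 CPM (median 108) and 77.0 to 166 CPM (median 131.5). Hist1h2ab was at 64.6 to 125.5 CPM (median 93.3) and 59.1 to 139 CPM (median 112). Their log2 changes of 0.07, 0.12 and 0.09 were each smaller than their standard errors of 0.18, 0.15 and 0.17. Hist1h2an, called without replicates 1 to 4 and with surrogate variables, had a log2 change of 0.22 (SE 0.16) over all libraries, and only 15.4% of its 75-base stretches occur in no other gene. With the deposit-order sets as a term the log2 changes were 0.18 for Hist1h2an (adjusted p = 0.171 by edgeR) and 0.15 for Hist1h2af (adjusted p = 0.0396).

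The H2B genes summed to 1504 ± 316 CPM in the vehicle group and 1572 ± 388 CPM in the calcitriol group (SD, n = 11 each), and held both genes at the edges of the test. Hist2h2bb (ENSMUSG00000105827, chr3:96269752-96270132, plus strand, 1 exon), whose start region is printed above, was at 65.5 to 147 CPM (median 109) in the vehicle libraries and at 80.8 to 192 CPM (median 147) in the calcitriol libraries. No vehicle library reached the 5 highest calcitriol libraries, and 6 calcitriol libraries lay within the vehicle range. The log2 change was 0.40 (SE 0.17, 95% interval 0.04 to 0.75, adjusted p = 0.0874 by edgeR), with adjusted p = 0.0428 in DESeq2 and 0.00743 by edgeR without replicates 1 to 4. It was 0.39 with the deposit-order sets as a term (SE 0.058, 95% interval 0.27 to 0.50, adjusted p = 2.9e-06 by edgeR), and in 5 of 5 sets every calcitriol library was above every vehicle library. Leaving out calcitriol replicate 3 or calcitriol replicate 4 alone also took it past the threshold (adjusted p = 0.0434 and 0.0485 by edgeR). Other fits went the other way. With total counts, or with resembling libraries summed, Hist2h2bb did not reach even an unadjusted p below 0.05. The same held on leaving out vehicle replicate 1, 2, 3, 4 or 10 alone, or calcitriol replicate 5, 6, 7 or 8 alone. Of its 75-base stretches 49.8% are shared with Gm42743, a noncoding gene that overlaps it on the same strand and itself had 0 to 10 counts per library, so how reads were split between them cannot be told apart.

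Hist3h2ba (ENSMUSG00000056895), the tested gene of the Hist3 cluster, was named after its values were seen. It was at 18.8 to 41.3 CPM (median 29.9) in the vehicle libraries and at 14.5 to 30.4 CPM (median 24.7) in the calcitriol libraries. Only the calcitriol replicates 1 and 2 were below all vehicle libraries. The log2 change was -0.28 (SE 0.13, 95% interval -0.54 to -0.02, adjusted p = 0.0941 by edgeR), and it was -0.25 without replicates 1 to 4 (adjusted p = 0.0350). It was -0.31 with those sets as a term (SE 0.071, adjusted p = 0.000753 by edgeR), and the calcitriol mean was the lower one in every set. Without vehicle replicate 2 alone, its adjusted p was 0.0383 by edgeR. With resembling libraries summed, or without a filter, Hist3h2ba did not reach even an unadjusted p below 0.05. The same held on leaving out calcitriol replicate 1, 2 or 4 alone, or vehicle replicate 6, 9 or 11 alone.

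The other H2B genes had values that overlapped between the groups. Hist1h2bb, the most abundant H2B gene per kilobase, was at 201.5 to 307 CPM (median 248) and 179 to 368 CPM (median 275), with a log2 change of 0.10 (SE 0.12). In it, 4 calcitriol libraries were above and 4 were below all vehicle libraries, so that the calcitriol libraries were spread more widely. Hist1h2bg was at 171 to 278 CPM (median 207) and 147 to 277 CPM (median 223). Hist1h2bj, the H2B gene with the widest spread, was at 20.98 to 73.0 CPM (median 46.6) and 19.1 to 68.4 CPM (median 50.5).

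The H3 genes, for the core histone whose tail carries many of the best known chromatin marks, summed to 1572 ± 305 CPM and 1588 ± 350 CPM (SD, n = 11 each). Hist1h3e was at 367 to 564.5 CPM (median 476) in the vehicle libraries and at 337.5 to 561 CPM (median 436) in the calcitriol libraries. Hist1h3i was at 98.4 to 196 CPM (median 138) and 85.0 to 189 CPM (median 152.5). Hist1h3c was at 112 to 238 CPM (median 175) and 100.1 to 251 CPM (median 199). The log2 changes of the 3 were -0.06, -0.0004 and 0.08, with standard errors of 0.09, 0.15 and 0.17. The median log2 change of the 11 tested H3 genes was -0.0004, the lowest of the 5 classes.

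Hist2h3c2 had the most negative estimate and the widest spread, and also the fewest counts of the tested genes, 310 over all libraries. It was at 0.842 to 3.82 CPM (median 1.88) and 0.280 to 2.36 CPM (median 1.61), and its log2 change of -0.40 had an interval from -0.96 to 0.16. Hist1h3d, called lower with surrogate variables and with the deposit-order sets as a term, was at 28.8 to 58.6 CPM (median 41.0) and 21.6 to 50.1 CPM (median 36.9), with a log2 change of -0.24 (SE 0.15, adjusted p = 0.256 by edgeR). With the sets as a term its change was -0.27 (SE 0.060, adjusted p = 0.000433 by edgeR), with all calcitriol libraries below all vehicle libraries in 4 of 5 sets.

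The H4 genes, which all encode the same core histone, summed to 2736 ± 619 CPM and 2927 ± 631 CPM (SD, n = 11 each). Summed per kilobase of exon over the tested genes they were the highest class, 4451 CPM per kb in the vehicle group, beside 2289 for H2B, 2289 for H3, 1693 for H1 and 1542 for H2A. Hist1h4f (ENSMUSG00000069274), the most abundant member per kilobase at 1147 CPM per kb in the vehicle group, was at 297 to 576 CPM (median 485) in the vehicle libraries and at 331 to 640.0 CPM (median 504) in the calcitriol libraries. Hist1h4h was at 194 to 401 CPM (median 329) and 259.9 to 439.8 CPM (median 386). Hist1h4k was at 137 to 269 CPM (median 218) and 135 to 275 CPM (median 242). In these 3 genes 3, 3 and 2 calcitriol libraries lay above the vehicle range, and the log2 changes were 0.10, 0.16 and 0.08 with standard errors of 0.13, 0.14 and 0.16. The median log2 change of the 12 tested H4 genes was 0.10. Of the 12, 5 were called with the deposit-order sets as a term, all higher. Counted in either direction, that share was near the 40.6% of all genes tested that were called in that fit. The share of all genes called higher in that fit is not given here, so the direction has no background beside it. The log2 change of the 5 ran from 0.10 (Hist1h4d, adjusted p = 0.0431 by edgeR) to 0.21 (Hist1h4b, adjusted p = 0.00304). For Hist1h4h it was 0.17 (SE 0.041, adjusted p = 0.00117 by edgeR), with all calcitriol libraries above all vehicle libraries in 4 of 5 sets, and for Hist1h4f it was 0.10 (adjusted p = 0.0934).

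Genes of 1 cluster did not share 1 level. The second Hist1 block gave 73.5% of all histone RNA, the first block 18.0%, Hist2 4.79%, Hist4h4 3.36% and Hist3 0.282%. In the Hist2 cluster, Hist2h3c2 and Hist2h2be stood at 1.90 and 1.29 CPM per kb in the vehicle group beside 274 CPM per kb of Hist2h2bb. The log2 ratios of the group means were 0.05 and 0.06 for the first and second Hist1 block, 0.16 for Hist2, 0.02 for Hist4h4 and -0.28 for Hist3. Scaled by total counts they were -0.017, -0.0037, 0.09, -0.047 and -0.35 in the same order, so that the sign held for Hist2 and Hist3 only. The annotated exon lengths used here may differ from those of the authors' annotation, which is not given in the sources used here, and long annotated transcripts such as that of Hist1h1d (7425 bases) lower a level per kilobase.

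**Figure D3:**
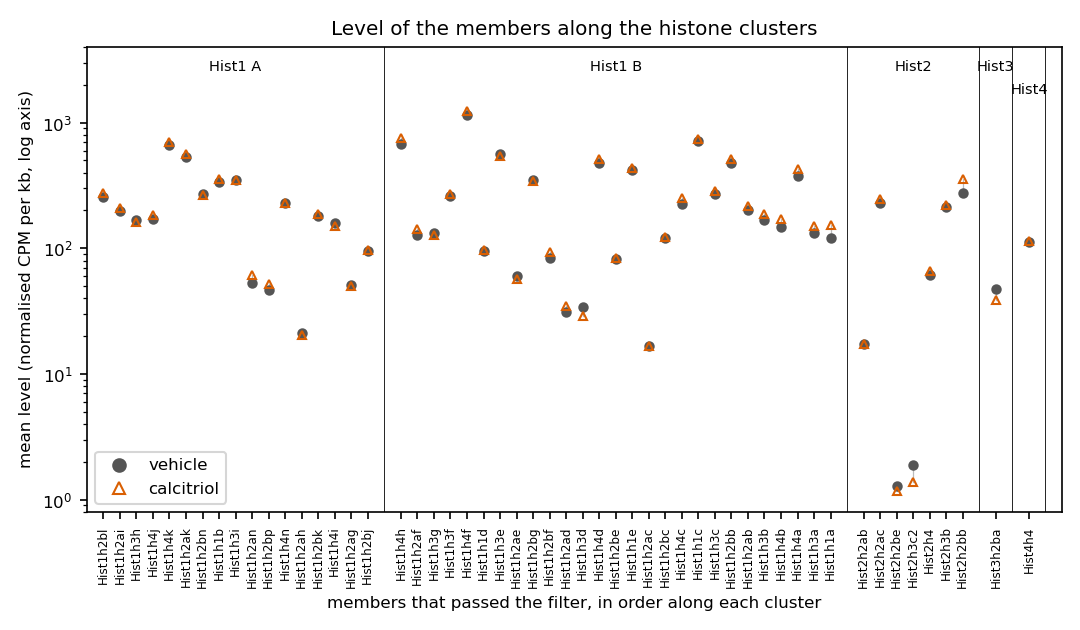
Mean level in CPM per kb (log axis) of the 53 tested genes in their order along each cluster, for vehicle (filled circles) and calcitriol (open triangles). Levels span from about 1 to above 1000 CPM per kb within short distances, while the paired symbols of a gene lie close together.

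Many H2A and H2B genes stand head to head and share a start region. There were 12 such pairs, with 176 to 306 bases between the starts, and both genes were tested in 9. Partners could differ widely in level: Hist2h2ac was at 118.5 CPM and its partner Hist2h2be at 3.38 CPM in the vehicle group. Their log2 changes with calcitriol were closer, differing within a pair by at most 0.265, and these differences were not tested.

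The spread between libraries was larger for the histone genes than for other genes of like level. The SD within the vehicle group had a median of 24.3% of the mean over the 53 genes (13.4% to 41.4%), and 27.1% in the calcitriol group (13.7% to 44.7%). For 6250 other genes of 23.0 to 439 CPM, the medians were 10.3% and 11.1%. The spread of the summed levels was lowest for H1, 16.9% in both groups, and highest for H2A, 24.6% and 28.1%. Beside Hist2h3c2, the widest spreads by the larger of the group values were those of Hist1h2bj, 39.5% and 40.5%, and Hist1h2ag, 24.0% and 36.2%.

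The genes shared this spread. Replicates 1 to 4 were the lowest 4 vehicle libraries in 45 of the 53 genes and the lowest 4 calcitriol libraries in 46, and both held in 41. The exceptions included Hist1h1c and Hist1h1e, in whose lowest 4 calcitriol libraries replicate 9 took a place, and the scarce genes Hist2h3c2 and Hist2h2be. The log2 level of the genes correlated with the log2 summed level over the 22 libraries with a median Pearson r of 0.941 (0.355 to 0.986), and 49 of 53 were above 0.8. The sum contains the genes themselves, the libraries fall into the sets described, and so r is a description. Among genes that are not named as histones the highest r were 0.954 for Dnmt1, the maintenance DNA methyltransferase of replicating cells, 0.953 for Stmn1, a microtubule regulator, 0.949 for Cdk4, a G1 kinase, and 0.945 for Tcf19, beside 0.955 for the identifier ENSMUSG00000096807, which has no symbol in the release used (n = 22 libraries each).

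**Figure D4:**
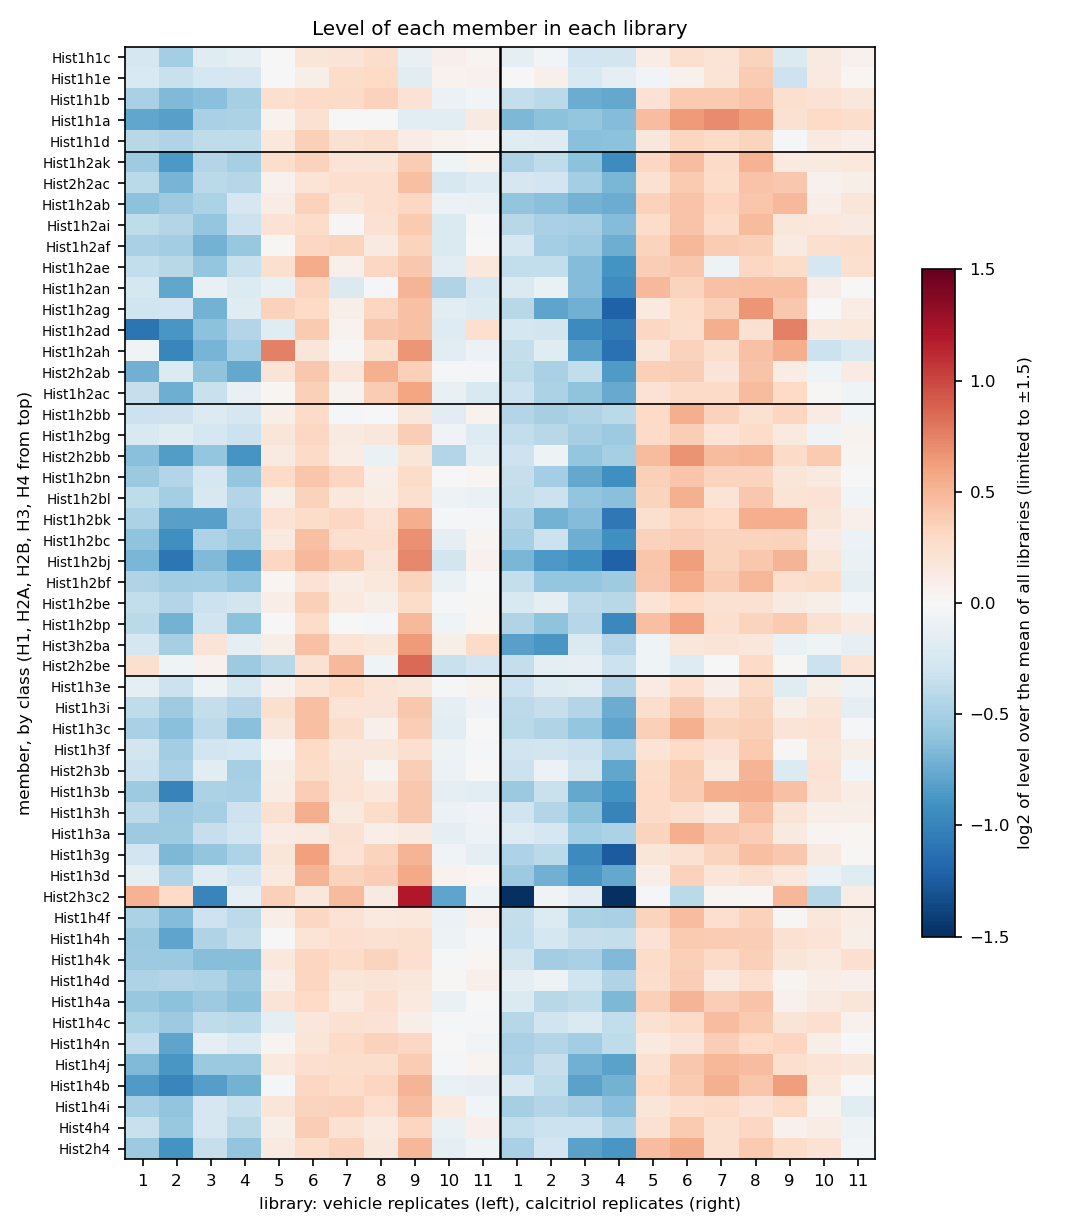
Level of each of the 53 genes (lines, by class) in each library (columns, vehicle left and calcitriol right) as the log2 of its CPM over its mean of all 22 libraries, limited to ±1.5. The columns of replicates 1 to 4 in both groups are blue in nearly all genes, and no colour step marks the border between the groups.

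The same 8 libraries were also low in genes of DNA replication. The summed level of 39 S phase genes was 3305 to 3966 CPM in replicates 1 to 4 of both groups and 4145 to 5514 CPM in the other libraries, also without overlap. The replication-independent variants, histone genes most of which are polyadenylated and also made outside S phase (H2afx, with its stem-loop, is among them), summed to 1538 to 1719 CPM and 1562 to 1969 CPM, with overlap, and their highest library was 1.28 times the lowest, beside 1.86 times for the replication-dependent genes. The mitochondrial share of counts was 1.99% to 3.03% and 1.79% to 3.15%. A smaller share of cells in S phase and less histone RNA per cell cannot be told apart in these bulk samples, and the part of either in the histone level was not tested.

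**Figure D5:**
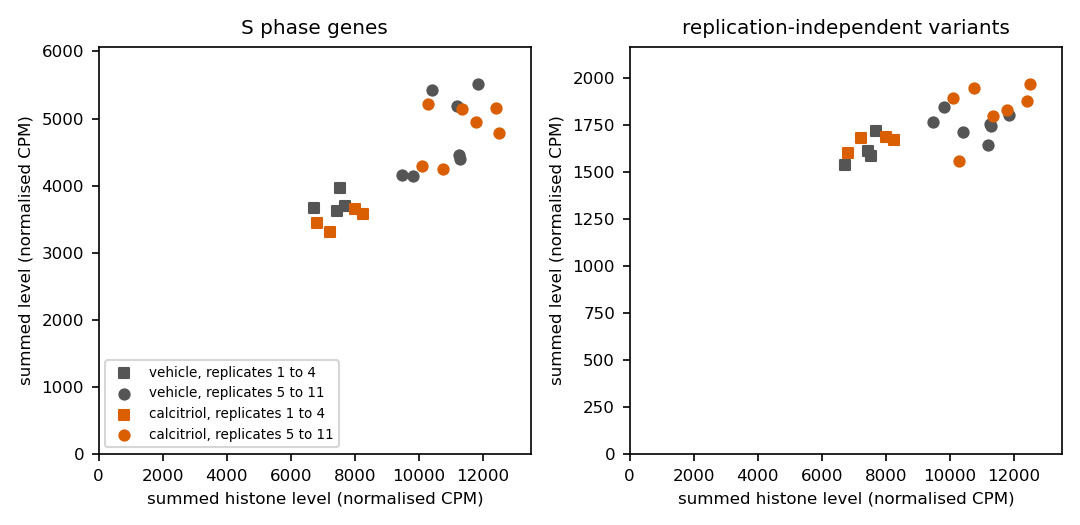
Summed CPM of S phase genes (left) and of replication-independent variants (right) against the summed histone CPM, 1 symbol per library; squares are replicates 1 to 4 and circles replicates 5 to 11. On the left the squares lie below all circles on both axes; on the right they overlap with circles on the vertical axis.

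The genes that make and carry histones are given as background to these values, and their counts of calls stand beside the 31.5% of all genes tested (16.1% higher, 15.5% lower). Of 26 tested genes for histone mRNA transcription and 3′ processing, 0 were higher and 2 lower (median log2 change -0.02, beside -0.01 over all genes). Fip1l1, a subunit of the cleavage and polyadenylation machinery, fell from 143 ± 11.5 to 128 ± 7.86 CPM (adjusted p = 0.0104 by edgeR), and Lsm11, of the U7 snRNP that cuts histone mRNA, fell from 22.3 ± 3.04 to 19.2 ± 2.17 CPM (adjusted p = 0.0401 by edgeR; SD, n = 11 each). The call of Lsm11 was lost in 11 of 22 fits without 1 library, with log2 changes of -0.24 to -0.18 in the 22. Coil, the coiled body protein, and Pou2f1, which encodes OCT1, had log2 changes of -0.23 and -0.16 (adjusted p = 0.0501 and 0.0960 by edgeR, and 0.0181 and 0.0417 with the deposit-order sets as a term). Slbp was at 106 ± 16.7 and 113 ± 16.6 CPM and Npat at 77.1 ± 8.00 and 78.3 ± 9.02 CPM (SD, n = 11 each), neither called; Slbp is also among the S phase genes.

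Of 19 tested genes of the G1/S drive, 1 was higher and 5 lower (median -0.04), a share called near that of all genes. The D cyclins, partners of CDK4 and CDK6, fell: Ccnd2 from 706 ± 72.3 to 506 ± 22.8 CPM and Ccnd3 from 294 ± 21.99 to 209.7 ± 18.7 CPM (log2 change -0.48 and -0.49, adjusted p = 1.51e-08 and 2.5e-08 by edgeR). Cdc25a, a phosphatase that activates CDK2, fell by 0.33 on the log2 scale (adjusted p = 0.00619 by edgeR), and Rbl1, for the pocket protein p107, rose by 0.33 (adjusted p = 0.00233 by edgeR). Atr and Cdkn1a were the other genes called lower. Among the 39 S phase genes (median -0.03), Gins2, a subunit of the replicative helicase, fell by 0.30 (adjusted p = 0.00172 by edgeR). The S phase sum was 4383 ± 698 CPM in the vehicle group and 4342 ± 748 CPM in the calcitriol group (SD, n = 11 each), and the groups overlapped.

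Of 26 histone chaperones, 2 were higher and 6 lower (median -0.08), again near the share of all genes. Ubn2, of the HIRA complex that deposits the H3.3 variant, rose from 45.8 ± 4.10 to 69.2 ± 7.19 CPM (log2 change 0.59, adjusted p = 1.48e-08 by edgeR), and Nap1l4, an H2A-H2B chaperone, rose by 0.18 (adjusted p = 0.00244 by edgeR). Anp32e, which removes H2A.Z, and Asf1a, an H3-H4 chaperone, both fell by 0.32 (adjusted p = 0.000207 and 0.00475 by edgeR). Of 10 tested replication-independent variants, 1 was higher and 0 lower, beside the 31.5% of all genes tested that were called. This was H3f3a, 1 of the genes for H3.3, which rose from 127 ± 7.24 to 152 ± 10.5 CPM (log2 change 0.26, adjusted p = 4.72e-05 by edgeR; SD, n = 11 each). H3f3b, for the same protein, had a log2 change of 0.10, H2afz -0.10, H1f0 0.08 and H2afx, whose mRNA can also end in the stem-loop, -0.03, none called. H2afv, Cenpa and H2afy2 had log2 changes of 0.15, 0.10 and -0.38, none called. In the fit with the deposit-order sets H2afv and Cenpa were called higher and H2afz lower (adjusted p = 0.00624, 0.0343 and 0.0338 by edgeR).

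Of 12 poly(A)-free RNAs of other kinds (median log2 change 0.21), 3 were higher, beside 16.1% of all genes, and 0 lower: Rn7sk (log2 change 0.27, adjusted p = 7.38e-06 by edgeR), Rpph1 (0.25, adjusted p = 0.0106 by edgeR) and Rmrp (0.20, adjusted p = 0.0398 by edgeR; its call was lost in 11 of 22 fits without 1 library), while Rnu12 had 0.30 (adjusted p = 0.0548 by edgeR). The difference between these RNAs and the histone genes was not tested.

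The 12 genes below the filter had 0 to 156 counts over all 22 libraries, and Hist2h2aa1 and Hist2h3c1 were at 0 in every library. Both overlap Gm20634 on the same strand and share 88.9% and 100% of their 75-base stretches with it. How reads were assigned there cannot be told apart. Hist1h1t, Hist1h2aa and Hist1h2ba, genes known from the testis, had 7, 9 and 33 counts, too few to compare. Most of the others share much of their sequence with other genes. In 8 of the 12, fewer than 15% of the 75-base stretches are found in no other gene, against 3 of the 53 tested genes. The median share of such stretches was 11.1% below the filter and 61.5% among the tested genes. Low counts of these near-identical copies do not show that they are silent. The part of shared sequence in the low counts was not tested. Tested genes with close copies, such as Hist1h3h (6.53%) and Hist1h2ai (10.7%), held 13135 and 15468 counts over all libraries. Those counts are uncertain as well.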

How the data were processed

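Per the labels' protocols, total RNA was depleted of globin transcripts and made into strand-specific libraries. What the authors deposited is 1 table of raw counts, with Ensembl genes as rows and libraries as columns. The submitters' processing notes list the aligner STAR (2.7.10a), the counter HTSeq (0.13.5) and GRCm38. Their strand and multi-mapping settings and gene models are not stated, so overlapping, antisense and near-identical genes are uncertain.

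All 22 columns matched samples by name. Symbols came from GENCODE M21. The main comparison, calcitriol against vehicle, used edgeR 4.0.16 in R 4.3.3 (filterByExpr, trimmed mean of M values, robust quasi-likelihood F test, two-sided), with adjustment over all 11905 genes tested. CPM were computed from the same scaled library sizes. Sums over histone genes have no test. Alternatives were DESeq2 1.42.0, limma-voom 3.58.1, other scalings and filters, left-out libraries, summed libraries, surrogate variables (sva 3.50.0) and deposit-order sets as a term. The fit was tested on simulated data. Promoter windows came from RefSeq (GRCm38.p6), transcripts from GENCODE M21. The genes and gene lists were chosen with earlier results of these data known.

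Named genes were, in each class, the 3 with the highest mean CPM per kb, any called gene, the 3 with the largest SD over mean in either group, 7 fixed genes (Slbp, Npat, H2afz, H3f3a, H3f3b, H2afx, H1f0), up to 4 with the smallest p in each other list (2 for S phase), and the 5 genes most correlated with the histone sum; Hist3h2ba, 7 genes called with surrogate variables and 4 called with the deposit-order sets as a term were added after their values were seen. A result of the S phase list is not reported here. Counting error sets the precision of low counts only in part, since reads carry no molecular identifiers.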

Additional observations from a re-analysis of the deposited data

How the results depend on the processing

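The count of histone genes called was 0 higher and 0 lower in the main comparison. It became 1 higher with DESeq2, 6 higher and 1 lower without replicates 1 to 4 of both groups (an alternative chosen after seeing the data), 8 higher and 2 lower with 5 surrogate variables, 10 higher and 2 lower with the deposit-order sets as a term (also chosen after seeing the data), 1 lower with total counts and 1 lower without replicates 1 and 2 of both groups. Leaving out 1 library at a time gave 0 to 1 higher (1 without calcitriol replicate 3 or 4) and 0 to 1 lower (1 without vehicle replicate 2). In those fits 29% to 31.8% of all genes tested were called. The other scalings and filters, limma-voom and the sum of resembling libraries (7 sets per group) gave 0 called. Of all genes tested, 31.5% were called with RLE size factors, 13.5% without a filter and 31.1% with at least 10 counts in 11 libraries. The share was 32.3% with limma-voom and 22.4% with summed libraries. With the sets as a term the standard errors were smaller, as given above; the cause of the other differences was not tested. The log2 ratio of the sum over all members ran from 0.023 to 0.11 without 1 library and from -0.0039 to 0.074 in the other alternatives. Negative ratios also occurred for H1, H2B, H3, both Hist1 blocks and Hist4h4, all positive in the main comparison. The ratios of H2A, H4 and Hist2 stayed positive and that of Hist3 stayed negative.

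Several small log2 changes had an unstable sign. With total counts they were -0.019 for Hist1h1c, -0.015 for Hist1h1e, -0.022 for Hist1h2bj, -0.046 for Hist1h2ag and -0.046 for Npat. Without replicates 1 and 2 they were -0.00050 for Hist1h1e and 0.0041 for Hist1h2bg. Without replicates 1 to 4 they were -0.015 for Hist1h1e, 0.051 for Hist1h2bg, 0.016 for Hist1h3i and 0.014 for H2afx. With the deposit-order sets as a term Hist1h2ag was at -0.024. With resembling libraries summed they were 0.022 for Hist1h3i, -0.016 for Npat and 0.055 for H2afx. Hist1h3i was at 0.0032 with RLE size factors, 0.0070 without a filter, 0.0047 with limma-voom and 0.0047 with surrogate variables. Leaving out single libraries gave -0.064 to 0.023 for Hist1h2bg, -0.047 to 0.057 for Hist1h3i, -0.028 to 0.15 for Hist1h2bj, -0.066 to 0.10 for Hist1h2ag and -0.089 to 0.045 for H2afx. Calls in the partner lists moved by 1 or 2 genes with DESeq2 or limma-voom. The labels carry no replicate numbers, so libraries were not paired 1 to 1. Depth limits mainly Hist2h3c2 and Hist2h2be, with 310 and 604 counts over all libraries.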

Other observations

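The share of H1 in all histone RNA was 26.4% in vehicle replicate 9 and 27.0% in calcitriol replicate 9, and 28.9% to 34.8% in the other 20 libraries. In replicates 1 to 4 of both groups it was 32.3% to 34.8%. The numbers only follow the order of deposit and do not pair the libraries.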
